A study of Rattus norvegicus with 69 samples.

Results

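Vnn1 encodes vanin 1, the pantetheinase that splits pantetheine into pantothenate and cysteamine, and it was examined here in rat liver together with 7 genes of coenzyme A synthesis and hydrolysis. The members were the rows of the deposited count table whose gene name was Vnn1, Pank1, Pank2, Pank3, Ppcs, Coasy, Nudt7 or Nudt19, 8 of the 38513 genes of the table. All 8 passed the filter on low counts, which kept 16676 genes. The members were selected on their CPM in these libraries across the 8 groups, above all on the Vnn1 levels of RYGB and sham livers. Contrasts with these 2 groups are therefore given for the members as a description, and nothing is read from counts of calls in them. The drug contrasts and BWM versus Lean were tested, although the selection also covered these groups.

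The libraries came from liver of 69 Wistar rats, 1 library per label, in 8 groups. Male rats with obesity induced by a high-fat diet received a Roux-en-Y gastric bypass (RYGB, labelled Bypass, n = 14) or a sham operation (sham, n = 12), or were given liraglutide, a GLP-1 analogue injected under the skin, together with the gut peptide fragment PYY from an osmotic minipump (liraglutide+PYY, n = 11), liraglutide with saline in the pump (n = 5), PYY (n = 5) or saline alone (n = 8). These treatments are taken from the study's methods, by which the animals could choose between high-fat and low-fat food and were killed after an overnight fast. A feeding period that was longer in some liraglutide+PYY and saline animals is described without a link to single libraries in the sources used here. Batch A holds 6 liraglutide+PYY and 3 saline libraries, as many as the animals with that longer period, so that for these groups the batch and the feeding period may not be separable. The labels BWM (n = 8) and Lean (n = 6) are not explained in the sources used here, and neither are age and diet of these animals. Each library carries a batch label, A (41 libraries) or B (28 libraries). RYGB, sham, liraglutide+PYY and saline are in both batches, BWM and Lean only in A, and PYY and liraglutide only in B.

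Coenzyme A carries acyl groups in fatty acid oxidation and synthesis. Cells make it from pantothenate, which pantothenate kinases phosphorylate, Ppcs joins to cysteine and Coasy converts to the finished cofactor after a decarboxylation. Nudix hydrolases cut coenzyme A to phosphopantetheine, and the pantetheine that arises from further breakdown is the substrate of vanin 1. In liver, Vnn1 is known as a target of the fasting-induced nuclear receptor PPARalpha.

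Promoters of 7 of the 8 members were found in RefSeq (build GRCr8), each running from 250 bases before to 50 bases after the annotated start. The 3 kinase promoters are shown because Pank1 and Pank3 varied together across livers while Pank2 varied the other way, and that of Ppcs because, among these genes, its level had the highest rho with Vnn1 after removal of the batch difference, though not after removal of group means as well. Capitals mark matches on either strand. They are to CCAAT (the box bound by NF-Y), GGGCGG (the box bound by Sp1), TATATA (letters like those of the TATA box) or AGGTCA (the core of nuclear receptor sites).
Pank1, chr1:241806414-241806713, minus strand: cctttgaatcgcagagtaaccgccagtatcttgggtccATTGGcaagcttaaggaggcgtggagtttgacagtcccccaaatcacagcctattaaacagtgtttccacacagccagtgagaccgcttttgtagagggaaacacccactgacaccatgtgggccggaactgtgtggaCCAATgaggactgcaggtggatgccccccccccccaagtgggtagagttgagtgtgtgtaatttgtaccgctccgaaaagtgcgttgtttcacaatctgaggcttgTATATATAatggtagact
Pank2, chr3:138936258-138936557, plus strand: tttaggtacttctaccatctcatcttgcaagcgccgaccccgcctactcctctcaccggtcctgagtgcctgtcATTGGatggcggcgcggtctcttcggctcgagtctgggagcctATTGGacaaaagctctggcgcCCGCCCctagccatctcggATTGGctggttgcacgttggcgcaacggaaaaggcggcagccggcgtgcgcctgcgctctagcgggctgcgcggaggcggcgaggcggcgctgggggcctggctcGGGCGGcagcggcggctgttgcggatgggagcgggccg
Pank3, chr10:20732941-20733240, plus strand: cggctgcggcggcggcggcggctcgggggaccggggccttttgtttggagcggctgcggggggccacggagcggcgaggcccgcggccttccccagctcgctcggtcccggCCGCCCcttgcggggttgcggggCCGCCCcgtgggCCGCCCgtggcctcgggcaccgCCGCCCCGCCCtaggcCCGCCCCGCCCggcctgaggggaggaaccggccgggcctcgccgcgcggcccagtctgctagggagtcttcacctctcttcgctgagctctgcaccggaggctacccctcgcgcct
Ppcs, chr5:138311764-138312063, minus strand: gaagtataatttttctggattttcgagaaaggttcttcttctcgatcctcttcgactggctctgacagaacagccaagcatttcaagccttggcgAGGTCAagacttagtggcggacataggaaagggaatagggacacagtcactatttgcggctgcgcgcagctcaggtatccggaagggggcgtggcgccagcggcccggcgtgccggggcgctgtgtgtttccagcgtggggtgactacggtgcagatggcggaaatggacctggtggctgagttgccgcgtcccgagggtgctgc
The kinase promoters differed in composition. G and C made up 50.7% of the Pank1 window, against 68.0% for Pank2 and 79.7% for Pank3, and 99.0% of the 33469 promoters of this length had a lower share than Pank3. The letters CCAAT occurred 2 times for Pank1 and 3 times for Pank2, and 37.5% of all promoters hold them at least once. GGGCGG, held by 33.1% of all promoters, occurred 7 times for Pank3, where some matches overlap by 1 base, and 2 times for Pank2. It also occurred 3 times for Nudt7, 2 times for Coasy and 1 time for Nudt19, whose promoters are not shown. AGGTCA occurred once, for Ppcs, and is in 16.2% of all promoters. TATAAA, in 14.2% of all promoters, was found in none of the 7. TATATA, held by 6.15%, occurred for Pank1 alone, as 2 overlapping matches that begin 32 and 34 bases after the annotated start. These are matches of letters and not measured sites.

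Library totals ran from 9110860 to 27559144 counts. A principal component analysis set 6 libraries of batch B apart, with scores over 100 on its leading axis (36% of the variance). These were sham replicate 12, PYY replicate 5, liraglutide replicate 4 and liraglutide+PYY replicates 8, 9 and 11, and the next highest score was 80.03 (saline replicate 9). Hepatocyte markers were abundant in all libraries (summed 52460 to 417300 CPM), while markers of other sources were uneven. Of the neutrophil markers, Elane (at most 0.0950 CPM, 59 libraries at 0) and Mpo (at most 0.238 CPM) were near 0, but S100a9 reached 17.7 and S100a8 8.85 CPM. Of the 5 pancreas and gut markers, Prss1 (at most 0.0412 CPM), Cpa1 and Vil1 stayed under 1 CPM, but Cela1 reached 96.7 and Fabp2 15.1 CPM. In the 6 libraries apart, the summed stellate cell markers were 225 to 675 CPM, against 44.6 to 249 CPM in the other 63, and the blood markers 333 to 1490 CPM, against 18.8 to 1180 CPM. The medians of these libraries were also higher for the pancreas and gut sum (90.8 CPM, against 23.1 CPM), the neutrophil sum (14.3, against 2.59 CPM) and the sinusoidal endothelium sum (223, against 113 CPM). In bulk tissue, fewer cells of a type and less RNA per cell cannot be told apart.

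By group median over both batches, Vnn1 was highest in RYGB livers. Its gene (ID 29142) lies on the minus strand of chromosome 1 at 22614832 to 22625134 of Rnor_6.0, the build of all gene positions given here. CPM, the count relative to the library total after scaling by TMM, had a lowest, median and highest value of 39.7, 64.5 and 95.2 in RYGB livers, against 6.57, 14.4 and 40.5 in sham livers. Of the 14 RYGB livers, 13 lay above every sham liver, and the exception, RYGB replicate 14, was just under sham replicate 12, one of the libraries apart. In batch A, all 11 RYGB livers lay above all 7 sham livers. The fitted log2 fold change was 2.12 (SE 0.32), a 4.35-fold higher level. The value was 2.48 (SE 0.28) in batch A and 1.28 (SE 0.69) in batch B, where 3 RYGB libraries (39.7, 41.2 and 85.1 CPM) stood against 5 sham libraries (11.2 to 40.5 CPM). Without the libraries apart the batch B value was 1.62. Vnn1 was the 1 of the 8 members past an adjusted p of 0.05 in this contrast, which called 3.12% of all genes tested. As the rule used this contrast, nothing is read from that count. Markers of Kupffer cells, the macrophages of the liver, had a summed level of 144 to 503 CPM (median 253) in RYGB livers, against 119 to 338 CPM (median 183) in sham livers, ranges that overlap, and all 6 markers had log2 fold changes above 0, of which Vsig4 (0.61, edgeR adjusted p = 0.0486) passed the test. Of the pancreas and gut markers, Cela1 was higher (0.90, edgeR adjusted p = 0.0187) and Fabp2 lower (-0.97, edgeR adjusted p = 0.102). The blood markers Alas2, Hba-a1, Hbb and Hbb-b1 had log2 fold changes of -0.71 to -0.90, none of which passed. The part of these markers in the Vnn1 difference was not tested.

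**Figure D1:**
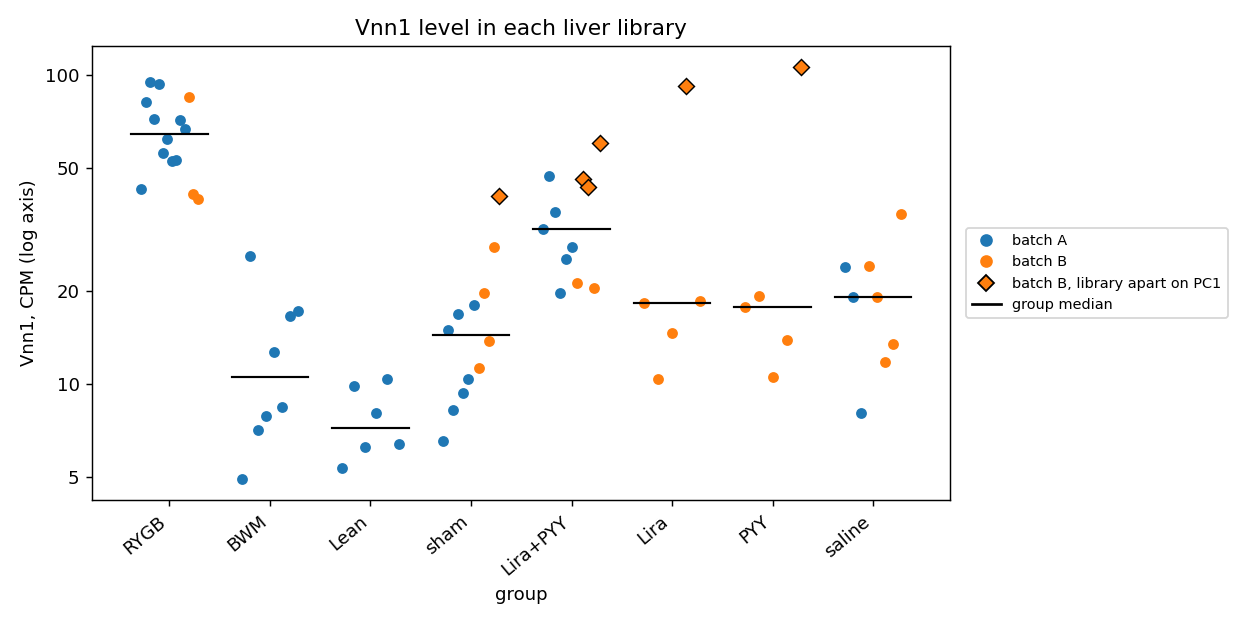
Vnn1 in CPM on a log axis, 1 point per liver library, by group, coloured by batch label (Lira, liraglutide), with diamonds for the 6 libraries apart on the first principal component and lines at group medians. The RYGB points run from 39.7 to 95.2 CPM and those of Lean from 5.36 to 10.4 CPM, and the highest PYY and liraglutide points (107 and 92.4 CPM) are single diamonds.

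All 14 RYGB livers also lay above all 8 BWM and all 6 Lean livers, as did the 11 RYGB livers of batch A, the only batch of BWM and Lean. The share of all genes that separate RYGB from these groups or from sham was not computed, so nothing is read from these separations. BWM livers had a lowest, median and highest value of 4.92, 10.6 and 26.1 CPM, and Lean livers of 5.36, 7.23 and 10.4 CPM. Of the BWM livers 4 lay above every Lean liver and 1 below, and the log2 fold change for BWM versus Lean was 0.71 (SE 0.41, edgeR adjusted p = 0.863). On the log2 scale the fold change was 2.31 for RYGB versus BWM and 3.02 for RYGB versus Lean, and that of Lean versus sham was -0.90. By group median over both batches, Vnn1 ran from Lean over BWM, sham, PYY, liraglutide, saline and liraglutide+PYY to RYGB. Each group's range overlapped that of its neighbour in this order. The order did not hold within the batches. In batch A the sham median (10.4 CPM) was just below that of BWM (10.6 CPM). In batch B sham (19.8 CPM) was above saline (19.2), liraglutide (18.3) and PYY (17.8 CPM). There liraglutide+PYY (43.5 CPM) was above RYGB (41.2 CPM, n = 3).

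In drug-treated livers, Vnn1 was 19.7, 31.9 and 60.5 CPM (lowest, median, highest) with liraglutide+PYY and 8.08, 19.2 and 35.5 CPM with saline. The ranges overlapped, with 5 of 11 treated livers above every saline liver and all 11 above the saline median. A log2 fold change of 0.89 (SE 0.35) did not pass the test (adjusted p = 0.454, edgeR). It was 0.87 in batch A and 0.90 in batch B. Within batch B it was 0.0098 once the libraries apart, 3 of the 5 treated ones, were left out.

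PYY livers had 17.8, 19.3, 10.5, 13.8 and 107 CPM of Vnn1, and liraglutide livers 18.3, 10.4, 14.7, 92.4 and 18.6 CPM. In each group 1 library stood far above the other 4, PYY replicate 5 and liraglutide replicate 4, and both are among the libraries apart. Versus saline, the log2 fold change was 0.66 for PYY (edgeR adjusted p = 0.947) and 0.54 for liraglutide (edgeR adjusted p = 0.972). Without that library it was -0.46 for PYY and -0.47 for liraglutide, so that 1 library set the sign in each comparison.

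Pantothenate kinases catalyse the step that controls the rate of coenzyme A synthesis. Pank1 (ID 294088, chromosome 1, 253115400 to 253189643, minus strand) was the most abundant of the 3 per length, with a median over all libraries of 13.8 CPM per kb of exon, against 4.97 for Pank2 and 4.21 for Pank3. In liraglutide+PYY livers Pank1 was 120, 162 and 289 CPM (lowest, median, highest), and in saline livers 97.4, 121 and 146 CPM. Of the 11 treated livers, 7 lay above every saline liver. This is a log2 fold change of 0.58 (SE 0.17), with an unadjusted p of 0.000938 and an adjusted p of 0.411 (edgeR). The 3 highest values, 225, 273 and 289 CPM, were those of the libraries apart, and without these libraries the log2 fold change was 0.19. It was 0.18 in batch A and 0.95 in batch B.

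Pank3 (ID 360511, chromosome 10, 20591432 to 20615258, plus strand) followed the same pattern. It was 20.03, 35.7 and 61.5 CPM with liraglutide+PYY and 9.42, 22.3 and 27.9 CPM with saline, and 7 of 11 treated livers lay above every saline liver. The fitted difference was 0.80 on the log2 scale (SE 0.26, edgeR adjusted p = 0.454), and 0.19 without the libraries apart, with 0.34 in batch A and 1.23 in batch B. Pank3 also differed by batch. Sham livers had 22.9 to 43.3 CPM in batch A and 9.06 to 33.6 CPM in batch B, where sham replicate 12 held the highest value and the other 4 lay at 9.06 to 12.2 CPM.

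Pank2 (ID 296167, chromosome 3, 123807911 to 123841797, plus strand), whose human protein is found in mitochondria and is mutated in a neurodegenerative disease, had group medians of 9.79 to 12.02 CPM, and the log2 fold change versus saline was -0.16 for liraglutide+PYY, -0.13 for PYY and -0.081 for liraglutide. The value for liraglutide+PYY was 0.064 in batch A and -0.40 in batch B. In the libraries apart Pank2 was 6.53 to 11.2 CPM (median 8.24), against 8.37 to 16.2 CPM (median 10.8) in the other 63. Pank1, in contrast, had a median of 235 CPM in the libraries apart and of 142 CPM in the others. Between RYGB and sham livers the log2 fold changes of the kinases were 0.24 for Pank1, -0.088 for Pank2 and 0.41 for Pank3.

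**Figure D2:**
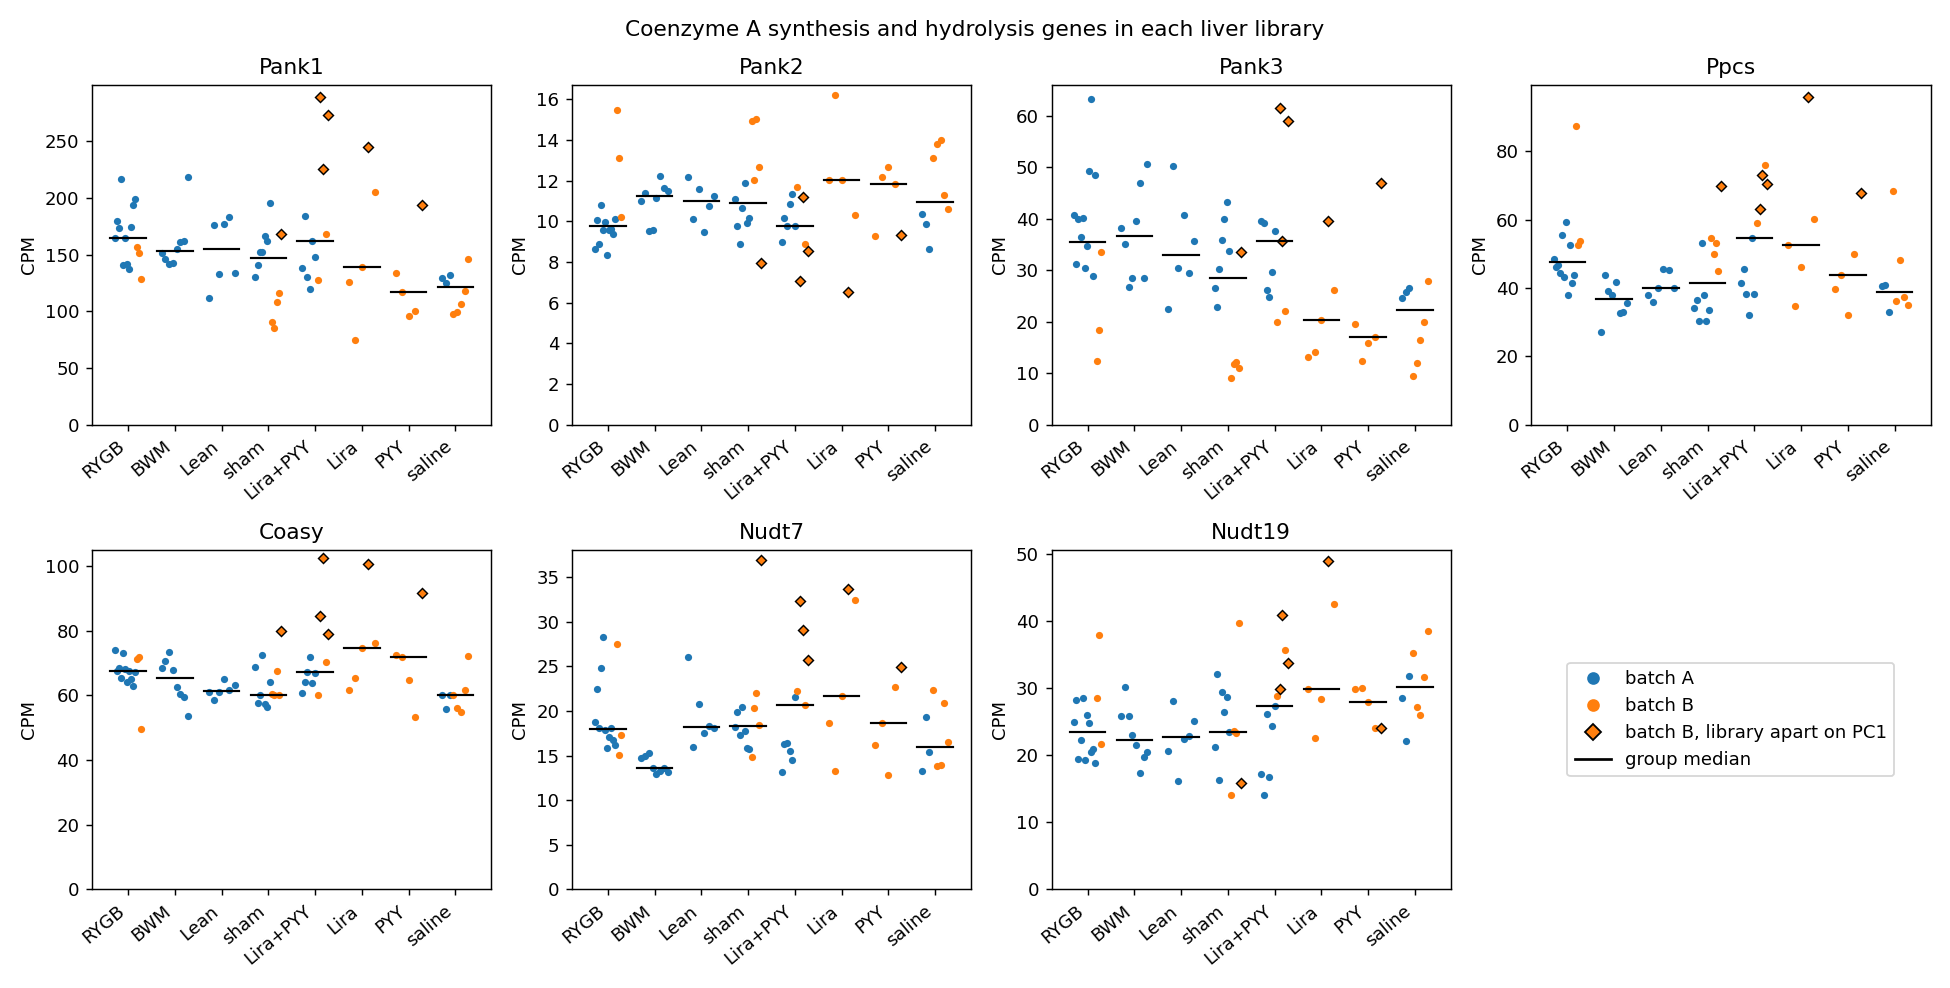
Levels of the 7 other genes in CPM, 1 point per liver library, by group, with batch colours, diamonds for the 6 libraries apart and lines at group medians as for Vnn1. The diamonds are at the top for Pank1, Coasy and Ppcs in most groups and low for Pank2, and the 8 BWM points of Nudt7 (12.9 to 15.3 CPM) lie below all Lean points.

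Ppcs, phosphopantothenoylcysteine synthetase (ID 298490, chromosome 5, 138466298 to 138470108, minus strand), was 37.96, 47.6 and 87.2 CPM in RYGB livers, against 30.4, 41.5 and 69.8 CPM in sham livers. Of the RYGB livers, 13 of 14 lay above the sham median, and the log2 fold change was 0.33 (SE 0.12). With liraglutide+PYY it was 32.2, 54.6 and 75.8 CPM, against 32.9, 38.9 and 68.4 CPM with saline. Its log2 fold change of 0.39 (SE 0.14) had an adjusted p of 0.454 (edgeR), and it was 0.32 without the libraries apart, 0.12 in batch A and 0.61 in batch B. Against PYY alone, liraglutide+PYY differed by 0.45 (unadjusted p = 0.0112, edgeR adjusted p = 0.955).

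Coasy, the bifunctional enzyme of the last 2 steps (ID 287711, chromosome 10, 88992413 to 88996677, plus strand), had the highest level per length, with a median of 27.0 CPM per kb, and varied least between livers (SD of log2 CPM 0.19, against 1.18 for Vnn1). It was 60.1, 67.3 and 102 CPM with liraglutide+PYY and 54.8, 60.1 and 72.0 CPM with saline. Liraglutide livers had 61.8, 65.4, 74.7, 101 and 76.1 CPM, 3 of them above every saline liver. Versus saline, the log2 fold change was 0.27 for liraglutide+PYY (edgeR adjusted p = 0.454) and 0.30 for liraglutide (edgeR adjusted p = 0.654). The first was 0.12 without the libraries apart, 0.15 in batch A and 0.39 in batch B, and the second 0.16 without liraglutide replicate 4. Between RYGB and sham livers it was 0.089 (SE 0.079).

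The nudix hydrolases act in peroxisomes, where Nudt7 and Nudt19 degrade coenzyme A, Nudt19 mainly known from mouse kidney. Nudt7 (ID 361413, chromosome 19, 46455745 to 46470070, plus strand) was 12.9 to 15.3 CPM in the 8 BWM livers (median 13.6) and 16.0, 17.5, 18.1, 18.3, 20.8 and 26.1 CPM in the 6 Lean livers. The groups did not overlap. The share of all genes that separate them was not computed, so nothing is read from this separation. In batch A the 8 BWM livers also lay below all 7 sham and all 11 RYGB livers, again without a share over all genes computed. They overlapped the batch A livers given saline (13.2 to 19.3 CPM) or liraglutide+PYY (13.2 to 21.6 CPM). The log2 fold change for BWM versus Lean was -0.48 (SE 0.17), with an unadjusted p of 0.00738 and an adjusted p of 0.318 (edgeR, 69 libraries). Fitted to batch A alone, which holds all BWM and Lean livers, it was -0.48 with an adjusted p of 0.0197 (edgeR), in a fit that called 1.88% of all genes. The call was not made in the fit of all libraries. In that fit BWM versus Lean called 0.528% of all genes tested and 0 of the 8 members. At an unadjusted p under 0.05 there was 1 member, Nudt7, by edgeR and 1 by DESeq2, beside 6.95% of all genes. Between RYGB and sham livers the log2 fold change of Nudt7 was 0.064, and between liraglutide+PYY and saline livers 0.31 (edgeR adjusted p = 0.454). The value for liraglutide+PYY versus saline was 0.011 in batch A, 0.59 in batch B and 0.093 without the libraries apart.

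Nudt19 (ID 308518, chromosome 1, 91820317 to 91845215, minus strand) was 14.2, 27.5 and 41.0 CPM with liraglutide+PYY and 22.2, 30.2 and 38.6 CPM with saline, a log2 fold change of -0.14 (SE 0.16, edgeR adjusted p = 0.700). It was -0.41 in batch A, 0.11 in batch B and -0.27 without the libraries apart. Reads that matched several places were divided by the authors' counting, and 41 of 69 libraries hold a fractional value for Nudt19 and 28 for Pank3, so that a share of these counts may belong to similar sequences. For Pank2, Ppcs and Nudt7 all values were whole.

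Over the drug comparisons, 0 of the 8 members passed the test in liraglutide+PYY versus saline, which called 0.006% of all genes. At an unadjusted p under 0.05, 6 members were higher (Vnn1, Pank1, Pank3, Ppcs, Coasy and Nudt7) and 0 lower, beside 7.93% of all genes higher and 10.9% in either direction, and DESeq2 also called 0 with 6 under that p. Without the libraries apart 2 of the 6 remained under it, Vnn1 and Ppcs, in a fit with 872 of 16770 genes under it in either direction. The selection also covered the drug groups, and some members varied together (rho 0.73 for Pank1 and Pank3). No excess over all genes is therefore read from the counts of members in the drug comparisons. PYY versus saline called 0 members and 0% of all genes (0 members under an unadjusted p of 0.05 by edgeR and by DESeq2, beside 4.95% of all genes). Liraglutide versus saline called 0 members and 0.006% of all genes, with 2 under that p (Pank1 and Coasy) by edgeR and 2 by DESeq2, beside 6.22% of all genes. Liraglutide+PYY versus liraglutide called 0 members and 0% of all genes (0 under that p by either tool, beside 5.33%), and liraglutide+PYY versus PYY called 0 members and 0.006% of all genes (2 under it, Pank1 and Ppcs, by edgeR, and 2 by DESeq2, beside 4.37%). The 3 comparisons with saline share the 8 saline libraries.

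**Figure D3:**
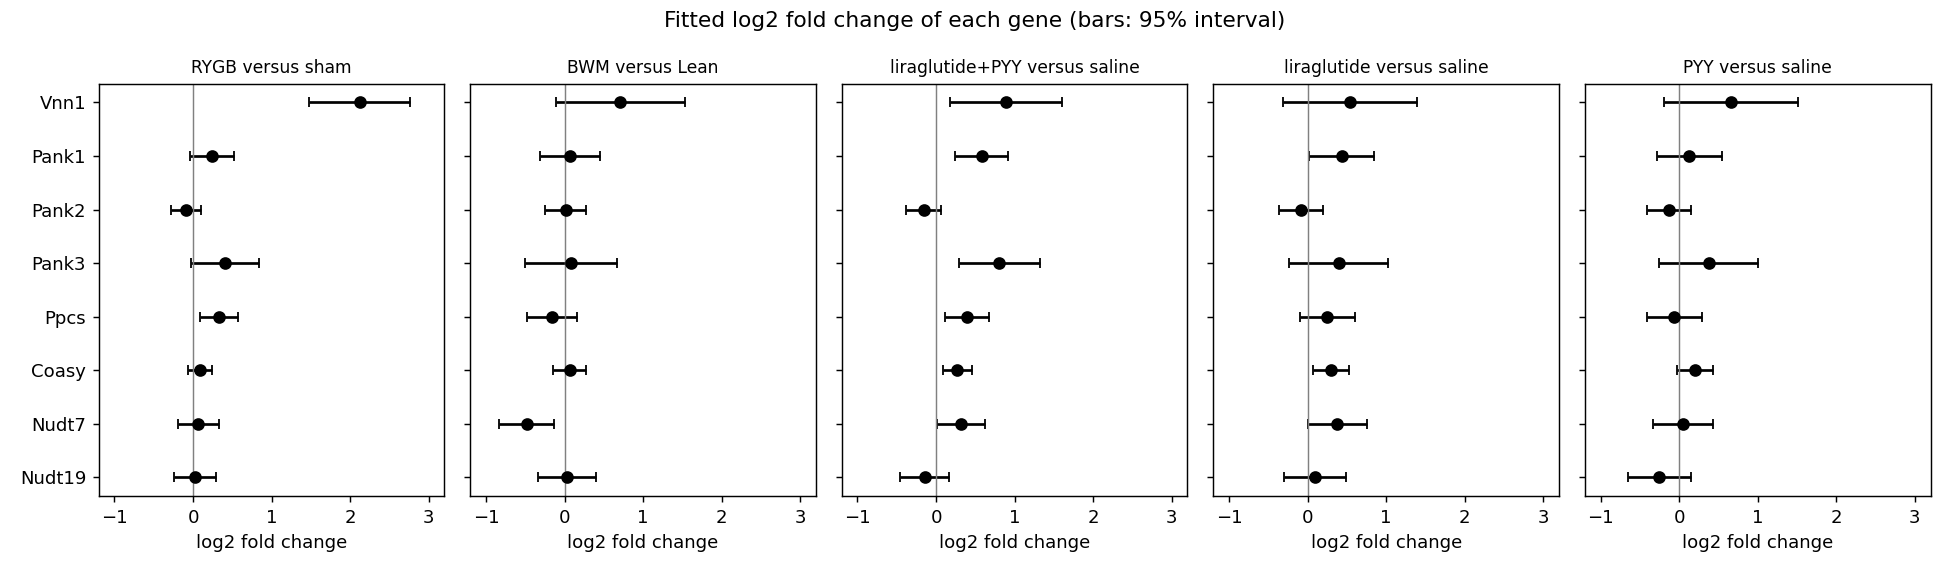
Fitted log2 fold change of each gene (points) with its 95% interval (bars) in 5 comparisons, each on the same axis. Vnn1 in RYGB versus sham lies at 2.12, and in liraglutide+PYY versus saline 6 of the 8 intervals lie above 0 although none of the adjusted p-values passed.

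The 6 libraries apart carried high values of most members. Vnn1 was 40.5 to 107 CPM in them, against 4.92 to 95.2 CPM in the other 63. Coasy was 78.9 to 102 CPM, above all of the other 63 (at most 76.1 CPM), and Ppcs had a median of 70.1 CPM, against 41.7 CPM. Nudt7 had a median of 30.7 CPM, against 17.3 CPM. The part that the marker levels, the batch or the scaling of these libraries had in these values was not tested.

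Across the 69 libraries, after the batch difference was removed, the gene with the level most like that of Vnn1 was Hsdl2 (Spearman's rho 0.79 of 12170 genes compared), followed by Galk1 (0.79), Hsd3b7 (0.77), Ugt1a3 (0.77) and Ugt1a6 (0.77), the last of which share exons. Hsdl2 encodes a peroxisomal dehydrogenase-like protein, Galk1 galactokinase and Hsd3b7 an enzyme of bile acid synthesis. Of the members, Ppcs ranked 60 (rho 0.59) and Pank1 247 (0.46), and Pank2 stood near the end of the order at 11745 (-0.40). After removal of group and batch means, rho with Vnn1 was 0.74 for Galk1, 0.73 for Hsdl2, 0.60 for Pank1 and 0.41 for Ppcs, whereas for Ugt1a3 it was 0.45. Among the members, Pank1 and Pank3 had a rho of 0.73, and Pank2 and Pank3 of -0.52. These correlations describe libraries that share batch, group and scaling.

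**Figure D4:**
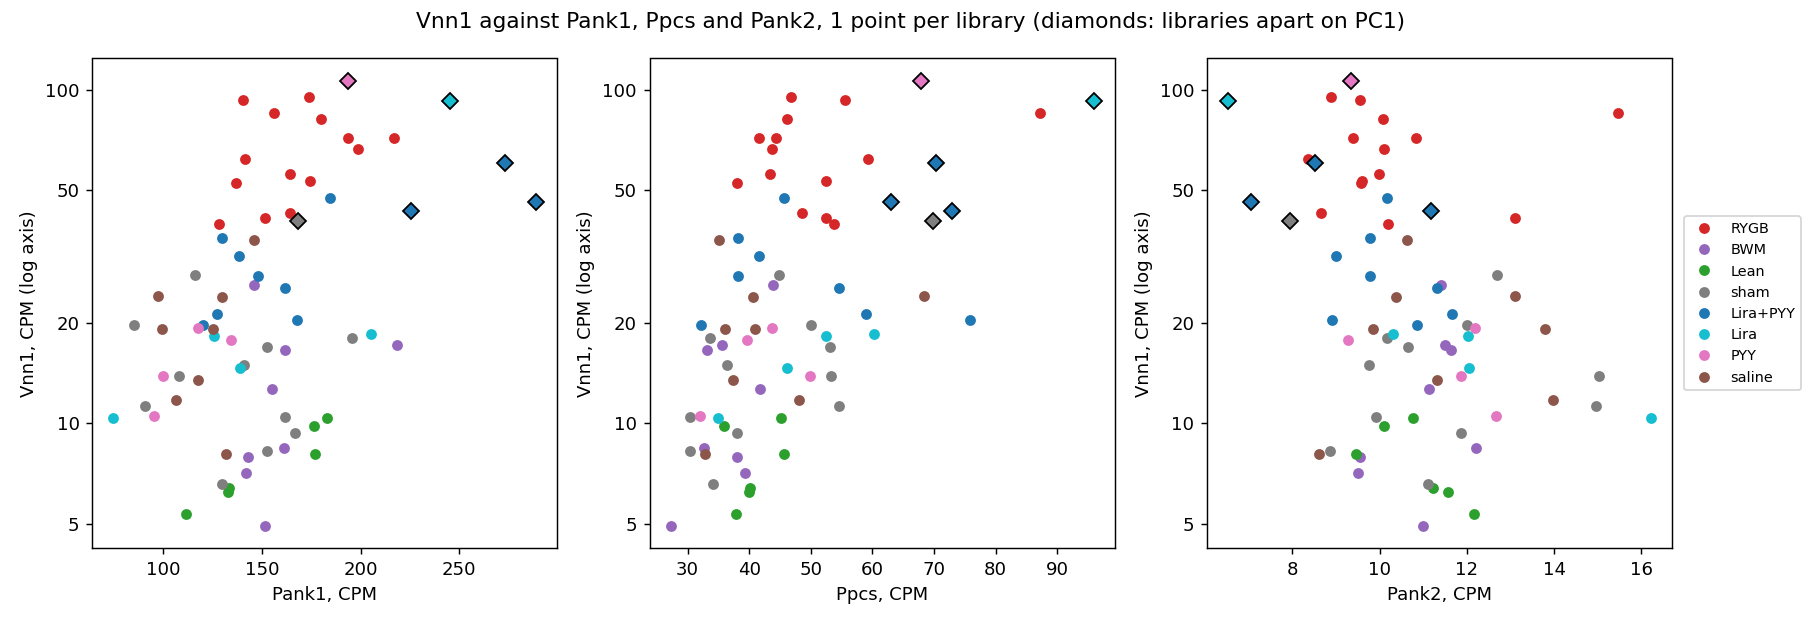
Vnn1 in CPM on a log axis against Pank1, Ppcs and Pank2 in CPM, 1 point per library, coloured by group (Lira, liraglutide), with diamonds for the 6 libraries apart. Vnn1 was higher in libraries with more Pank1 (rho 0.46) and Ppcs (0.59) and lower in those with more Pank2 (-0.40), after removal of the batch difference.

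Other genes of the pathway were read from lists. These were chosen with earlier results of these data known, so their calls in RYGB versus sham are a description. Of 10 further coenzyme A genes, 0 passed the test in RYGB versus sham, the lowest p-values belonging to Enpp3, an ectonucleotide pyrophosphatase (log2 fold change 0.51, edgeR adjusted p = 0.132), and Slc5a6, the transporter that takes up pantothenate (0.23, edgeR adjusted p = 0.404). At an unadjusted p under 0.05 there was 1 by edgeR and 2 by DESeq2, which also called 0, beside 3.12% of all genes called and 12.7% under that unadjusted p. Their median log2 fold change was 0.071, beside -0.00499 over all genes. Cysteamine, the other product of vanin 1, can be oxidised to hypotaurine and taurine. A list of 7 genes linked to cysteamine or taurine was read, not all of which act on cysteamine. In RYGB versus sham 0 of the 7 passed by edgeR or DESeq2 (1 at an unadjusted p under 0.05 by each, beside 12.7% of all genes). Cdo1, cysteine dioxygenase, was at -0.63 (edgeR adjusted p = 0.176, and -0.51 with 0.0198 without the libraries apart). Csad, the decarboxylase of the step after Cdo1, was at -0.51 (edgeR adjusted p = 0.427). Cdo1 and Csad serve the route from cysteine and not that from cysteamine. In BWM versus Lean, 1 of the 7 passed, beside 0.528% of all genes called. This was Fmo1, an oxygenase that acts on hypotaurine, with a log2 fold change of 1.53 (edgeR adjusted p = 0.00757). Its means were 169 ± 42.6 CPM in BWM and 58.5 ± 31.6 CPM in Lean livers (SD, n = 8 and 6). Lean livers also stood apart in this list elsewhere, with 1 gene called lower in Lean versus sham (lowest log2 fold change -1.26). In RYGB versus Lean 1 was called higher (highest 1.68).

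Of the 10 acyl-CoA thioesterases tested, which release free coenzyme A, 0 passed in RYGB versus sham by edgeR or DESeq2 (3 at an unadjusted p under 0.05 by each, beside 12.7% of all genes), with Acot2 at 0.55 (edgeR adjusted p = 0.172) and Acot1 at 0.77 (edgeR adjusted p = 0.240). Among 6 genes for the transfer and carriers of phosphopantetheine, 1 passed upward and 1 downward in RYGB versus sham, beside 3.12% of all genes called. Fasn, fatty acid synthase, was higher by 1.495 on the log2 scale (edgeR adjusted p = 0.0271). It had 188 ± 186 CPM in RYGB and 68.7 ± 42.5 CPM in sham livers (SD, n = 14 and 12). Aldh1l2, a mitochondrial folate enzyme with a carrier domain, was lower by 0.55 (edgeR adjusted p = 0.0169). The highest log2 fold change in this list was 2.215 in Lean versus sham and 1.578 in BWM versus sham, but 0.12 in RYGB versus BWM. A higher level than in sham was thus not particular to RYGB in this list. As a description, 4 of 19 PPARalpha genes were called higher and 0 lower in RYGB versus sham, which called 3.12% of all genes. These were the fatty acid omega-hydroxylases Cyp4a3 (0.74, edgeR adjusted p = 0.00383), Cyp4a1 (1.21, edgeR adjusted p = 0.00954) and Cyp4a2 (1.64, edgeR adjusted p = 0.0112) and the peroxisomal thiolase Acaa1b (0.58, edgeR adjusted p = 0.0305). The Cyp4a genes, Acaa1b and its copy Acaa1a, and Acot1 and Acot2 are close paralogs whose reads the counting may have divided, so that their single values are uncertain. Ppara itself had a log2 fold change of 0.40 (edgeR adjusted p = 0.317). Without the libraries apart, an alternative added for these lists after seeing the data, these 4 genes also passed, as did Ppara (0.55, edgeR adjusted p = 0.0121), in a fit that called 5.51% of all genes, and in the fit of all libraries the median of the 19 was 0.099. In each of the 5 drug comparisons, 0 genes of any of these 5 lists passed by edgeR or DESeq2, with 0 to 3 genes of a list at an unadjusted p under 0.05 by either tool, beside 4.37% to 10.9% of all genes by edgeR.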

How the data were processed

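Poly(A) RNA of liver was sequenced with a stranded kit, per the labels. According to the submitters' processing notes, the authors used bcl2fastq 2.20.0.422, cutadapt 2.5, STAR 2.7.2b and featureCounts 1.6.4 on Rnor_6.0. The authors deposited estimated counts without normalization, 15.9% of them fractional because shared reads were divided. These were rounded and fitted in R 4.3.3 with edgeR 4.0.16 (filterByExpr, TMM, robust quasi-likelihood test, terms for group and batch, all 69 libraries), with Benjamini-Hochberg adjustment over 16676 genes and a threshold of 0.05. Log2 CPM used a prior count of 2, and likeness to Vnn1 was computed over genes averaging 1 or more on that scale, after limma 3.58.1 removed the batch difference. DESeq2 1.42.0, other scaling, filter, batch, replicate and library choices were tried as alternatives. The model was run on simulated counts with 4-fold changes, the same spread for every gene, no batch difference and no libraries apart. That run cannot show how well smaller changes, such as those in the drug comparisons, would be found. Members and lists were chosen with earlier results of these data known. Named genes were all members, the called genes of each list (at most 4) or the 2 with the lowest p in RYGB versus sham, and the 5 most like Vnn1. Replicates are libraries of separate labels, and p-values measure the spread between them. Total counts of 9110860 to 27559144 per library limit the precision of low genes.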

Additional observations from a re-analysis of the deposited data

Results flagged for a closer look

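In groups of 4 to 10 libraries, 1 value stood apart from the rest by Dixon's criterion in 4 of the 40 sets of values examined, where chance alone gives about 5% or 1 in 20. Vnn1 was 92.4 CPM in liraglutide replicate 4, the other 4 liraglutide livers having 10.4 to 18.6 CPM. Vnn1 was 107 CPM in PYY replicate 5, with 10.5 to 19.3 CPM in the other 4. Pank1 was 219 CPM in BWM replicate 8, against 142 to 162 CPM in the other 7 BWM livers. Coasy was 72.0 CPM in saline replicate 9, against 54.8 to 61.8 CPM in the other 7 saline livers.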

How the results depend on the processing

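The count of members called stayed at 0 in each of the 5 drug comparisons under all alternatives run. In BWM versus Lean it was 1 in batch A alone (Nudt7). In RYGB versus sham, with 1 called in the fit of all libraries, it was 2 in batch A alone, 2 without the 6 libraries apart, 0 in batch B alone and 0 in batch B without the libraries apart, an alternative chosen after seeing the data. The share of all genes called moved with it, at 5.62%, 5.51%, 0.15% and 0.222% in that order, and since the members were chosen with this contrast the counts are a description. The Vnn1 log2 fold change was then 1.285 in batch B and 1.619 in batch B without the libraries apart. Leaving out each replicate gave 2.03 to 2.26.

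Signs turned for values that did not pass the test. In liraglutide+PYY versus saline, Pank2 was 0.064 in batch A, and Nudt19 0.11 in batch B and 0.028 in batch B without the libraries apart. In PYY versus saline, without the libraries apart, Vnn1 was -0.38 and Nudt7 -0.0079, and in batch B without them Vnn1 was -0.43, Pank1 -0.022 and Pank3 -0.079, while Ppcs was 0.14 with no batch term and 0.041 in batch B. In liraglutide versus saline, without the libraries apart, Vnn1 was -0.36, Pank2 0.017 and Nudt19 -0.074, and in batch B without them Vnn1 was -0.43 and Nudt19 -0.049. The cause was not tested.

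Leaving out 1 replicate at a time turned signs within these ranges. In PYY versus saline Vnn1 ran from -0.46 to 0.89, Pank1 from -0.066 to 0.22, Pank3 from -0.087 to 0.53, Ppcs from -0.23 to 0.048 and Nudt7 from -0.068 to 0.16. In liraglutide versus saline Vnn1 ran from -0.47 to 0.76, Pank2 from -0.24 to 0.053, Ppcs from -0.024 to 0.39 and Nudt19 from -0.089 to 0.21. In BWM versus Lean Pank1 ran from -0.0084 to 0.13, Pank2 from -0.022 to 0.057, Pank3 from -0.012 to 0.21 and Nudt19 from -0.045 to 0.10.

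Libraries with the same replicate number were not taken as pairs, since in none of the 12 comparisons did every pair have r over 0.1. The count over 0.1 was 4 of 5 in liraglutide+PYY versus PYY, 4 of 6 in Lean versus sham, 4 of 8 in liraglutide+PYY versus saline (2 of 8 best with their own number) and 0 of 6 in RYGB versus Lean. With the replicate number as a block, Nudt7 in PYY versus saline was -0.057, Pank3 in BWM versus Lean was -0.052, and the Vnn1 log2 fold change in RYGB versus sham was 2.247, while the counts of members called were the same as without the block.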
